A study of Glycine max with 12 samples.

Results

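Young leaves of soybean (Glycine max) were compared with old leaves of soybean when both were held at high manganese (Mn). The comparison rests on 6 of the 12 RNA sequencing libraries of the series, chosen by their labels: 3 of young leaves at 100 µM Mn and 3 of old leaves at 100 µM Mn. The plants stood in nutrient solution and were moved to this Mn level, given as the sulfate, when the fifth leaf began to form. The other 6 libraries, 3 of young and 3 of old leaves at the normal 5 µM Mn, served only to ask whether a leaf age difference depended on Mn. The labels give neither the cultivar nor how many plants a replicate pooled, so p-values measure the spread between these libraries, part of which may be technical.

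Young leaves are still expanding and building chloroplasts, and they import part of their carbon and nitrogen. Old leaves export sugars and, as they age, also the nitrogen of their proteins. Mn is a cofactor of a mitochondrial superoxide dismutase and of the photosystem II complex that splits water. It moves poorly in the phloem, so that it builds up in older leaves, where symptoms of excess usually appear first. How leaves of different age stand in expression under Mn excess is the question that this comparison addresses.

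The deposited values are FPKM, the fragments of a gene per kilobase of its length, relative to all fragments of that library. A gene was tested if it reached an FPKM of 1 in at least 3 of the 6 libraries, which 27271 of 39811 listed genes did. Differences are young minus old on the log2(FPKM + 1) scale, on which the change of weakly expressed genes is understated, and a gene was called at a Benjamini-Hochberg adjusted limma p below 0.05 over all genes tested. Young-leaf libraries at 100 µM held 19608302 to 20826335 fragments and old-leaf libraries 18540551 to 20189064. Replicates correlated across genes at r = 0.976 to 0.98 among young leaves at 100 µM and at 0.973 to 0.985 among old leaves, against 0.82 to 0.864 between the leaf ages. Genes are not independent replicates. The table names genes by the IDs of the Wm82.a2.v1 gene models, and 0 of the 39811 IDs matched the RefSeq table used here, so genes carry no names or roles below. For the same reason the leaf label, beside which the extraction text speaks of nodules, was not checked against marker genes.

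Leaf age accounted for most of the variation among the 6 libraries. On the first principal component, with 84.3% of their variance, the young-leaf libraries lay at 81.9, 64 and 71.9 and the old-leaf libraries at -72.2, -71.8 and -73.7. Of the 27271 genes, 13529 were called by limma, which is 49.6%. Of these, 7529 were higher in young leaves (27.6%) and 6000 were lower (22%). Differences of at least 2-fold were called for 2941 genes higher in young leaves (10.8%) and 1487 lower (5.45%), and differences of at least 4-fold for 827 higher (3.03%) and 262 lower (0.961%). The values of the leaf ages did not overlap at 16570 genes (60.8%). The median difference over all genes was 0.02 on the log2 scale, the quartiles were -0.31 and 0.44, and the upper tail was the longer one, with a 95th percentile of 1.59 against a 5th percentile of -1.06.

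The side with more calls depended on scaling and on the filter. Higher calls made up 55.7% as deposited and 44.9% after quantile normalization, with 6347 higher and 7800 lower. That normalization moved the median difference over all genes to -0.08. Among the 16203 genes with a mean FPKM of 5 or more, 4121 were called higher and 4162 lower. At 2-fold or more, higher genes outnumbered lower ones in both alternatives, with 2412 against 1921 after quantile normalization and 1388 against 1018 under the filter. With a pseudocount of 5 in place of 1, the counts at 2-fold or more were 1171 higher and 704 lower. A pseudocount of 0.1 gave larger counts, 3847 higher and 1981 lower. In bulk tissue, fewer cells of a type and less RNA per cell cannot be told apart, for these genes and all those below.

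**Figure D1:**
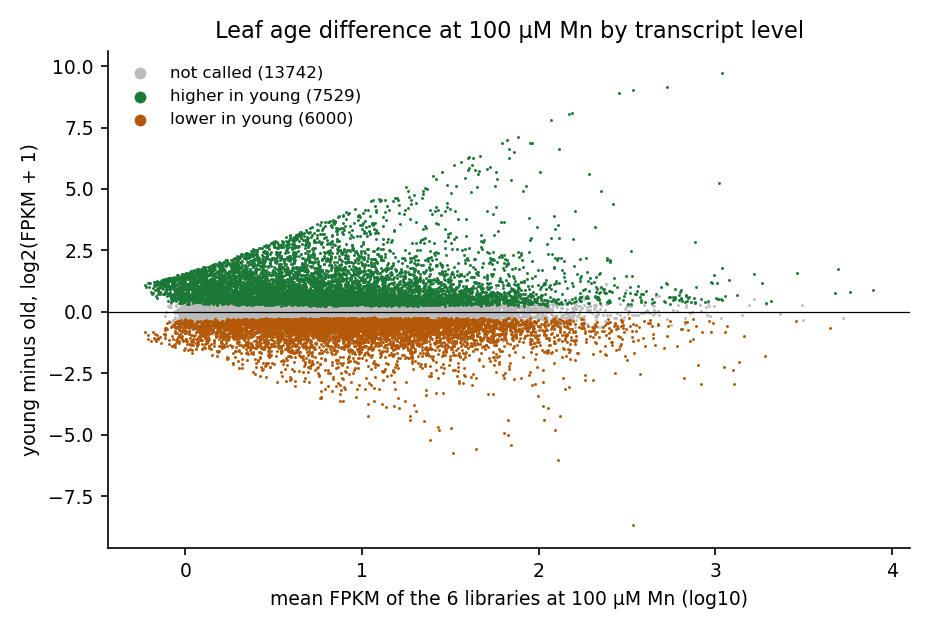
Each point is 1 of 27271 genes, with the mean FPKM of the 6 libraries at 100 µM Mn on a log10 horizontal axis and the young minus old difference on the log2(FPKM + 1) scale on the vertical axis. Green points are the 7529 genes called higher in young leaves, orange points the 6000 called lower and grey points those not called; the differences run from -8.69 to 9.71.

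At 100 µM, more genes were detected in every young-leaf library than in any old-leaf one. An FPKM of 1 was reached by 26966, 26905 and 26995 genes in the young-leaf libraries at 100 µM and by 25264, 25450 and 25255 in the old-leaf libraries. The means were 26955 ± 45.9 in young leaves and 25323 ± 110.1 in old leaves (SD, n = 3 each). At least 1 fragment was found for 36652, 36564 and 36810 genes in young leaves, against 34817, 35013 and 35027 in old leaves. The young-leaf libraries were mostly the deeper ones, though the shallowest of them, with 19608302 fragments, lay below the deepest old-leaf library, with 20189064. Depth was not equalized for these counts. The 20 most abundant genes of each library held 10.5, 10.1 and 9.36% of the fragments in young leaves, against 8.89, 9.22 and 9.1% in old leaves. The fewest genes that together held 50% of the fragments numbered 1347, 1456 and 1505 in young leaves, against 1337, 1277 and 1278 in old leaves. Each of these measures separated the leaf ages without overlap, with an exact permutation p of 0.1, 2-sided, the smallest that 3 against 3 libraries allow. The top 20 genes thus held a larger share in young-leaf libraries at 100 µM, while 50% of the fragments were spread over more genes there. At 5 µM, an FPKM of 1 was reached by 25264, 25703 and 24564 genes in young leaves. The 24638, 24089 and 25615 in old leaves overlapped with them. The genes holding 50% of the fragments numbered 786, 886 and 691 in young leaves, against 1049, 1017 and 1766 in old leaves. That order was the opposite one. Genes with a fragment and the top 20 share kept their order at 5 µM.

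The strongest differences set high transcript levels in either leaf age against low, though often detectable, levels in the other. Genes were ranked among those that were called, had no overlap and reached a mean FPKM of 5 in the higher leaf age. First among the genes higher in young leaves was Glyma.14G115500.Wm82.a2.v1, a gene on chromosome 14. Its FPKM was 2359, 2029 and 2141 in young leaves at 100 µM, against 1.33, 2.14 and 1.4 in old leaves. It was the 16th most abundant of all genes in young leaves and close to the expression threshold in old ones. The log2 difference was 9.71 (SE 0.14, adjusted p = 5.2e-07). At 5 µM it stood at 1376, 1405 and 1279.5 in young leaves and at 4.38, 4.09 and 2.92 in old leaves, so that high Mn went with a higher level in young leaves and a lower one in old leaves. The age difference was 1.55 larger at 100 than at 5 µM (SE 0.22, adjusted p = 0.011).

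The second, Glyma.11G098400.Wm82.a2.v1 on chromosome 11, had an FPKM of 1435, 939 and 832 in young leaves at 100 µM, against 0.864, 0.752 and 0.949 in old leaves. The difference of 9.13 (SE 0.20, adjusted p = 1.3e-06) was near the 9.31 found at 5 µM, where young leaves had 1366, 1174 and 1269 and old leaves 1.7, 0.806 and 0.637. The change of -0.18 with Mn did not pass (SE 0.31, adjusted p = 0.75), and the gene separated the leaf ages at both Mn levels. The next ID on the chromosome ranked number 5, with an FPKM of 411, 296 and 224 in young leaves at 100 µM and a difference of 8.09.

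Lowest in young leaves relative to old ones was Glyma.14G195000.Wm82.a2.v1, also on chromosome 14. Its FPKM was 0.305, 1.96 and 0.199 in young leaves at 100 µM, against 656, 692 and 713 in old leaves, a difference of -8.69 (SE 0.32, adjusted p = 7.8e-06). At 5 µM it had 1.79, 4.09 and 10.5 in young leaves and 853, 823 and 696 in old leaves. The old-leaf level was thus alike at both Mn levels in these libraries, and the change of the age difference with Mn, -1.52, did not pass (SE 0.63, adjusted p = 0.16).

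Glyma.15G041100.Wm82.a2.v1 on chromosome 15 had an FPKM of 2.48, 3.83 and 2.1 in young leaves at 100 µM, against 164, 259.9 and 342 in old leaves, a difference of -6.04 (SE 0.28, adjusted p = 1.6e-05). In old leaves at 5 µM it had 90.4, 30.4 and 34.8, below each old-leaf library at 100 µM, and in young leaves 1.85, 0.719 and 0.917. The change of the difference with Mn was -1.57 (SE 0.55, adjusted p = 0.11).

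**Figure D2:**
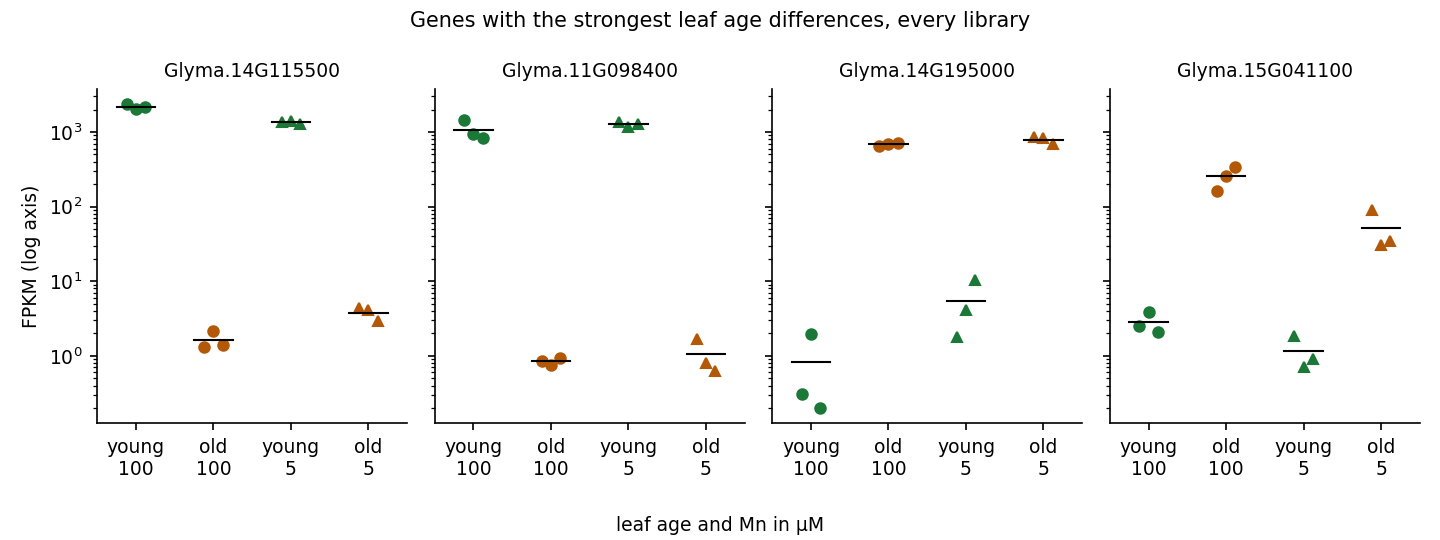
FPKM on a log axis in every library for the genes with the strongest differences, in young and old leaves at 100 µM Mn (circles) and at 5 µM (triangles); bars are means of 3 libraries. In Glyma.14G115500.Wm82.a2.v1 the young-leaf libraries at 100 µM lie between 2029 and 2359 and the old-leaf libraries between 1.33 and 2.14, and in Glyma.14G195000.Wm82.a2.v1 the order of the leaf ages is the opposite.

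The 10 genes ranked highest had differences of 6.88 to 9.71, with mean FPKM of 132 to 2176 in young leaves and 0 to 1.62 in old leaves. All 10 were called higher in young leaves at 5 µM as well, with differences of 3.31 to 9.31. The share called higher there was 13.3% of all genes and 84.4% of the genes higher by 4-fold or more at 100 µM. The eighth of the 10, a gene of 721 bases on chromosome 14, depended most on Mn among these 10. It had 171, 97.4 and 189.5 in young leaves at 100 µM, against 0, 0.15 and 0.0687 in old leaves, and 13.1, 17.7 and 4.15 in young leaves at 5 µM. Its age difference was 3.80 larger at 100 µM (adjusted p = 0.011). The 10 genes ranked lowest had differences of -4.81 to -8.69, with means of 0.178 to 7.2 in young leaves and 48.2 to 687 in old leaves. All 10 were called lower in young leaves at 5 µM. The share called lower there was 18.9% of all genes and 90.8% of the genes lower by 4-fold or more at 100 µM. Means in the lower leaf age reached 1.62 among the 10 highest and 7.2 among the 10 lowest. That level is part of the difference used for ranking, so nothing is read from this comparison. The change of the difference with Mn passed for 3 of the 10 highest and for 4 of the 10 lowest, against 4.74% of all genes tested; the ranking used the difference at 100 µM, which is part of that change, so nothing is read from these counts.

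Genes without any fragment in one leaf age were nearly all genes of young leaves. Among the tested genes, 74 had 0 fragments in all 3 old-leaf libraries at 100 µM, out of 57884794 fragments, and 5 had 0 fragments in all 3 young-leaf libraries, out of 61252873. A gene that passed the expression threshold through a single leaf age had to differ, so these counts are descriptions. Set against the limit that a count of 0 allows, 3 fragments over the group, the 74 genes were at least 9.14-fold to at least 5714-fold higher in young leaves, with a median bound of 84.4. The 5 genes were at least 33.9-fold to at least 76.9-fold lower in young leaves. These limits cover counting error only.

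The gene with the highest bound lies on chromosome 13. It had 7897, 3765 and 6478 fragments in young leaves at 100 µM and 0 in each old-leaf library. At 5 µM it had 6428, 4035 and 4988 fragments in young leaves, against 0, 1 and 0 in old leaves. A gene on chromosome 6 showed the rarer pattern. It had 0 fragments in all 6 young-leaf libraries, 69, 48 and 62 in old leaves at 100 µM, and 0, 6 and 1 in old leaves at 5 µM. The transcript was thus detected mainly in old leaves at high Mn, at an FPKM of 1.5, 1.08 and 1.28.

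The balance of higher and lower genes changed with transcript level. Among the 4009 tested genes with a mean FPKM below 2 over the 6 libraries, 37% were higher in young leaves and 15.3% lower. Part of this class passed the threshold only through the leaf age in which it is high. Between 2 and 5 FPKM, 27.6% of 7059 genes were higher and 17.9% lower, and between 5 and 10 FPKM, 23.9% of 6276 genes were higher and 21.9% lower. Between 10 and 50 FPKM, 25% of 8012 genes were higher in young leaves and 26.5% lower. Between 50 and 500 FPKM, 29.9% of 1796 genes were higher and 33.3% lower. The 119 genes at 500 or more leaned to young leaves again, with 60 higher (50.4%) and 31 lower (26.1%). The genes called lower in young leaves held 21.2 to 23.1% of the fragments in young leaves and 39.7 to 41.2% in old leaves. The genes called higher in young leaves held 36.6 to 40.2% in young leaves and 18.8 to 19.7% in old leaves. These shares restate the calls in terms of fragments and are no test. The same genes held 37 to 38.4% in young leaves and 19.1 to 21.6% in old leaves at 5 µM.

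**Figure D3:**
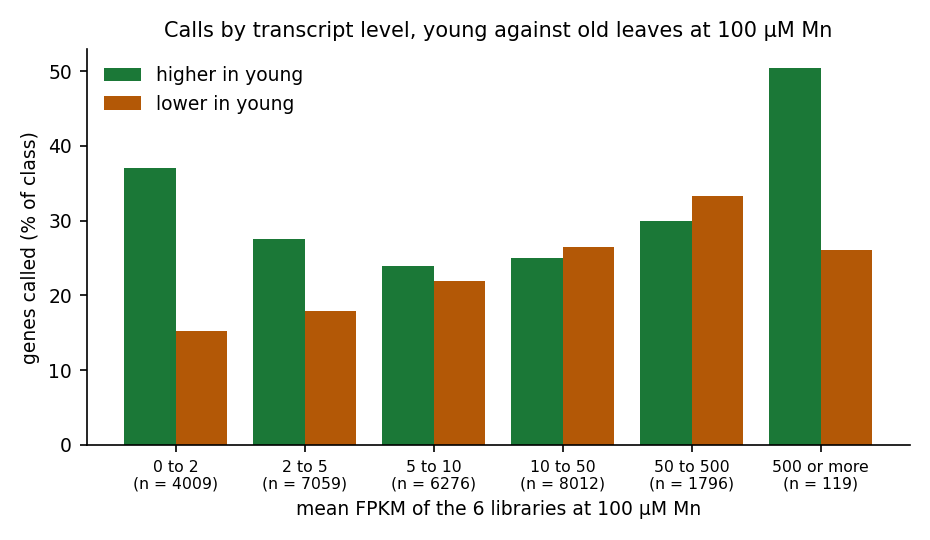
Share of genes called higher (green) or lower (orange) in young leaves, relative to old ones, at 100 µM Mn, for classes of mean FPKM over the 6 libraries, with the number of genes in each class. Higher calls exceed lower ones in the 3 classes below 10 FPKM (37 and 15.3% in the lowest) and from 500 FPKM on (50.4 and 26.1%), and the order is the opposite between 10 and 500 FPKM.

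Of the 20 genes with the highest mean FPKM in young leaves at 100 µM, 14 were also among the 20 highest of old leaves. Of the young-leaf 20, 11 were called higher in young leaves, 2 lower and 7 were not called. Of the old-leaf 20, 7 were called higher in young leaves, 8 lower and 5 were not called. Over all genes tested, 27.6% were higher and 22% lower, and picking the top genes of a leaf age favours calls toward that leaf age, so nothing is read from these counts. The most abundant gene of young leaves, on chromosome 13, had an FPKM of 11374, 9779 and 9408 in young leaves, against 5584, 5506 and 5313 in old leaves (difference 0.89, SE 0.11, adjusted p = 0.00081). The second, a gene of 880 bases on chromosome 19, had 8392, 7392 and 6974 in young leaves and 2145, 2701 and 1977 in old leaves (difference 1.75, SE 0.15, adjusted p = 0.00014). The most abundant gene of old leaves, on chromosome 11, had 4898, 4985 and 4470.2 in young leaves and 5303, 6087 and 5760.1 in old leaves. Its difference of -0.26 did not pass (SE 0.11, adjusted p = 0.089).

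A few of the most abundant genes differed by far more. A gene of 1096 bases on chromosome 15, the 18th of young leaves, had 2147, 1952 and 2043 in young leaves, against 70.4, 26.9 and 77.1 in old leaves (difference 5.25, SE 0.37, adjusted p = 6.8e-05). A gene of 578 bases on chromosome 17, the 12th of old leaves, had 261, 336 and 279 in young leaves, against 2741, 2279.9 and 1709 in old leaves (difference -2.92, SE 0.19, adjusted p = 5.3e-05). Among these abundant genes were also some with an age difference that changed with Mn. A gene of 988 bases on chromosome 16, the 16th of old leaves, had 272, 539 and 402 in young leaves at 100 µM, against 1956, 1765 and 1772 in old leaves (difference -2.23, SE 0.23, adjusted p = 0.00032). At 5 µM it had 2.56, 22.8 and 1.15 in young leaves, against 417, 257 and 881 in old leaves, a difference of -6.33. Both leaf ages were thus higher at 100 µM, and the age difference there was the smaller one (adjusted p for the change = 0.046). The abundant transcripts of the leaf ranged from differences within the replicate spread to differences of more than an order of magnitude.

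Most of the leaf age differences called at 100 µM had the same sign in the separate libraries at 5 µM, and fewer were called there. Of the 827 genes higher by 4-fold or more in young leaves at 100 µM, 779 had the same sign at 5 µM (94.2%), and 698 were called higher there, against 13.3% of all genes tested. Of the 262 genes lower by 4-fold or more, 261 had the same sign at 5 µM (99.6%), and 238 were called lower there, against 18.9% of all genes. The medians of the 827 genes were 2.56 at 100 µM and 2.17 at 5 µM, and those of the 262 genes -2.48 and -2.01. As the genes were picked at 100 µM, a smaller median at 5 µM also follows from that choice. Over all 7529 higher genes, 75.7% had the same sign at 5 µM and 42.8% were called higher there. Over all 6000 lower genes, 93.2% had the same sign and 49.6% were called lower. The median age difference over all genes was 0.02 at 100 µM and -0.17 at 5 µM, an offset toward the sign of the lower genes.

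Whether an age difference depended on Mn was tested with all 12 libraries as the change of the difference, 100 minus 5 µM. This change was called for 1293 genes (4.74%), more positive at 100 µM for 1046 (3.84%) and more negative for 247 (0.906%). More positive changes made up 80.9% of these calls as deposited, 63% after median-of-ratios rescaling and 53.7% after quantile normalization, which moved the median change over all genes from 0.16 to -0.03 and -0.07. The count also moved by more than 1.5 times with single libraries. Without replicates 1, 2 and 3 of young leaves at 100 µM it was 795, 645 and 171, and without those of old leaves at 100 µM it was 802, 249 and 282. It was 279 and 178 without replicates 1 and 3 of young leaves at 5 µM, and 2464 and 3193 without replicates 1 and 2 of old leaves at 5 µM. The replicate spread was widest in old leaves at 5 µM, with a median SD of 0.266 on the log2 scale, against 0.134 in young and 0.141 in old leaves at 100 µM.

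**Figure D4:**
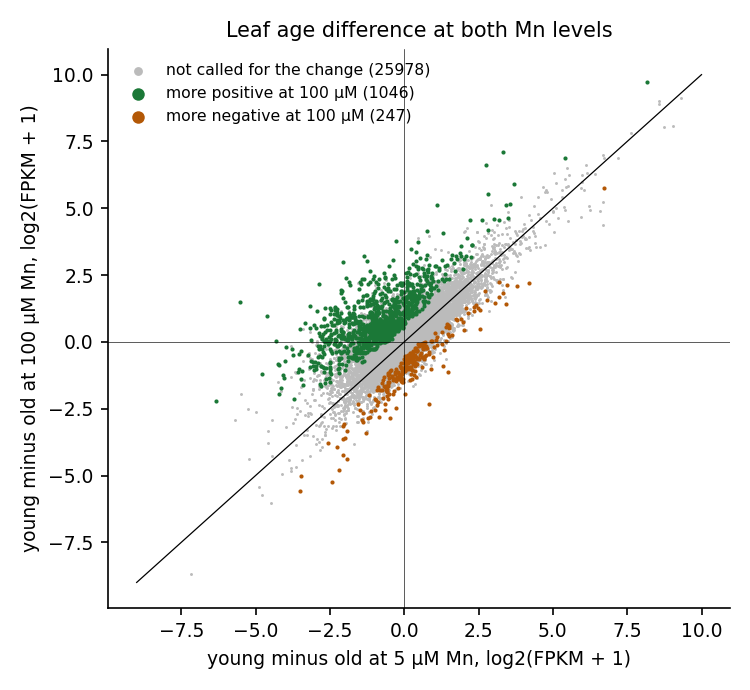
Young minus old difference on the log2(FPKM + 1) scale at 100 µM Mn (vertical axis) against that at 5 µM (horizontal axis) for 27271 genes, with the line of equal differences. Green points are the 1046 genes called for a more positive difference at 100 µM, orange points the 247 called for a more negative one and grey points the rest.

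Among the 7529 genes higher in young leaves at 100 µM, 653 were called for a larger difference there than at 5 µM and 30 for a smaller one. Median FPKM of these 653 was 9 in young and 2.86 in old leaves at 100 µM, and 2.73 in young and 4.17 in old leaves at 5 µM. Their leaf age difference at 100 µM thus went with a young-leaf level above that at 5 µM and an old-leaf level below it. Over all tested genes, the median FPKM of young-leaf libraries was also higher at 100 µM, 6.44 to 6.65 against 4.79 to 5.3 at 5 µM. In old-leaf libraries it was 6.22 to 6.25 at 100 µM and 5.11 to 6.65 at 5 µM. Among the 6000 lower genes, 181 were called for a larger difference at 100 µM and 79 for a smaller one. Median FPKM of the 181 was 4.37 in young and 14.9 in old leaves at 100 µM, and 4.74 in young and 6.73 in old leaves at 5 µM, so that here the old-leaf level differed most between the Mn levels. The medians of the 653 and of the 181 genes describe genes chosen by the same values and are no test. Of the 7529 higher genes, 160 were called lower at 5 µM, against 18.9% of all genes tested, and of the 6000 lower genes, 9 were called higher there, against 13.3%.

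Changes with Mn were ranked only among genes called both at 100 µM and for the change. These genes also had no overlap at 100 µM and a mean FPKM of at least 5 in some group. The strongest change toward young leaves among them was that of Glyma.02G083700.Wm82.a2.v1, a gene of 359 bases on chromosome 2. It had an FPKM of 20.6, 24.2 and 42.8 in young leaves at 100 µM, against 5.96, 11.7 and 10.9 in old leaves. At 5 µM the order was turned round, with 0.153, 1.32 and 0.661 in young leaves and 95.3, 25 and 174 in old leaves. The age difference was 1.5 at 100 µM (SE 0.32, adjusted p = 0.0073) and -5.53 at 5 µM (SE 0.65, adjusted p = 0.001), a change of 7.03 (SE 0.81, adjusted p = 0.0063). With the variance taken from all 12 libraries, the difference at 100 µM did not pass (adjusted p = 0.056).

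Glyma.12G021300.Wm82.a2.v1 on chromosome 12 had 177, 259 and 259 in young leaves at 100 µM, against 27.8, 27 and 28.8 in old leaves, a difference of 2.99 (SE 0.16, adjusted p = 2.7e-05). At 5 µM young leaves had 14.9, 81 and 5.73 and old leaves 70.1, 67.3 and 126, so that the leaf ages overlapped. The change of 5.03 (SE 0.94, adjusted p = 0.021) did not pass without replicate 1 of young leaves at 5 µM, without replicate 2 or 3 of old leaves at 100 µM, or without replicate 3 of young leaves at 100 µM, with adjusted p-values of 0.051 to 0.06.

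In the other direction, Glyma.15G272800.Wm82.a2.v1, a gene of 434 bases on chromosome 15, had 8.58, 18.8 and 10.1 in young leaves at 100 µM, against 76, 57.7 and 55.1 in old leaves (difference -2.31, SE 0.27, adjusted p = 0.00058). At 5 µM the young-leaf libraries were the higher ones, with 6.58, 7.78 and 5.8 against 2.71, 3.59 and 3.63 in old leaves. The change was -3.15 (SE 0.34, adjusted p = 0.0056). On chromosome 3, Glyma.03G036500.Wm82.a2.v1 had its lower level in young leaves at both Mn levels. It had 0.241, 0.31 and 0.351 in young leaves at 100 µM, against 39, 47.4 and 58.2 in old leaves, and 0.568, 0.594 and 0.735 in young leaves at 5 µM, against 5.7, 8.01 and 10.5 in old leaves. Its difference was -5.22 at 100 µM and -2.44 at 5 µM, a change of -2.78 (SE 0.27, adjusted p = 0.0056).

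Called genes were spread over all 20 chromosomes. The share called higher in young leaves lay between 24.5% on chromosome 1 and 29.5% on chromosome 16, and the share called lower between 20.5% on chromosome 5 and 24% on chromosome 1. IDs of soybean gene models count upwards along a chromosome, so that consecutive IDs mark neighbouring genes. Differences of neighbouring genes correlated weakly, at r = 0.092 over 14417 pairs of consecutive IDs and at 0.012 over 13727 pairs that lay 10 IDs apart. Both genes were lower by 2-fold or more in young leaves in 81 pairs of consecutive IDs (0.562%) and in 34 pairs that lay 10 apart (0.248%). For genes higher by 2-fold or more the counts were 208 (1.44%) and 160 (1.17%).

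Runs of 3 or 4 consecutive IDs that all were higher by 2-fold or more numbered 14, with 45 genes, and such runs of lower genes numbered 6, with 19 genes. Of the 14 runs of higher genes, 4 lie on chromosome 8, which holds 1923 of the 27271 tested genes. On that chromosome 11.1% of genes were higher by 2-fold or more, against 10.8% of all genes. Whether runs were more frequent than these shares give was not tested. Neighbouring genes can be tandem copies, which was not checked for these runs. How fragments shared by near-identical copies were counted is not given in the sources used here, so values within a run may not be independent. At 5 µM, 21 of the 45 genes in runs of higher genes were called higher as well. The like share was 13.3% of all genes and 70.9% of the 2941 genes higher by 2-fold or more at 100 µM. All genes were called in 3 of the 14 runs. Of the 19 genes in runs of lower genes, 16 were called lower at 5 µM. That was the case for 18.9% of all genes and 73.3% of the 1487 genes lower by 2-fold or more at 100 µM. All genes were called in 3 of these 6 runs. The example runs on chromosomes 17 and 4 are among the runs with all genes called, and they were chosen after their values were seen. One run on chromosome 17 holds the gene that ranked number 6 among those higher in young leaves. Its 3 genes had mean FPKM of 297, 16.2 and 5 in young leaves at 100 µM and of 0.0561, 0.768 and 0 in old leaves, and all 3 were also called higher in young leaves at 5 µM. A run of 4 on chromosome 4 went the other way, with means of 4.96, 0.7, 9.13 and 0.471 in young leaves at 100 µM and of 10.5, 14.5, 206 and 13 in old leaves, and all 4 were also called lower in young leaves at 5 µM.

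A run of 4 genes of 510 to 594 bases on chromosome 8 held abundant transcripts whose age difference was called at 100 µM and not at 5 µM. The third gene had an FPKM of 1834, 1304 and 1906 in young leaves at 100 µM, against 548, 371 and 566 in old leaves (difference 1.77, SE 0.21, adjusted p = 0.00062). At 5 µM it had 182, 368 and 158 in young leaves, against 442, 267 and 1188 in old leaves, a difference of -1.24 (adjusted p = 0.13). The change of the difference passed for this gene (adjusted p = 0.033) and missed for the other genes of the run, with adjusted p-values of 0.063 to 0.20. Their differences at 100 µM were 1.58, 1.37 and 2.11 and those at 5 µM -0.42, -0.11 and -0.18.

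**Figure D5:**
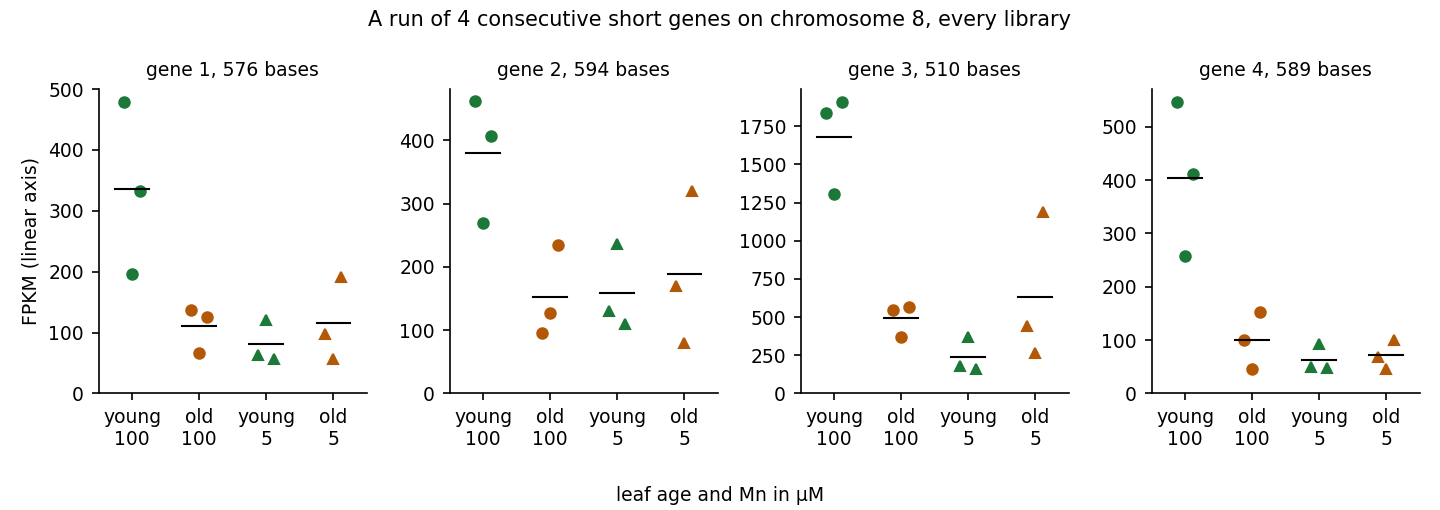
FPKM on a linear axis in every library for 4 genes with consecutive IDs on chromosome 8, in young and old leaves at 100 µM Mn (circles) and at 5 µM (triangles); bars are means of 3 libraries and each panel has its own axis. In the third gene the young-leaf libraries at 100 µM lie between 1304 and 1906 and the old-leaf libraries between 371 and 566.

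Short genes leaned more to young leaves than long genes did at 100 µM, with the values as deposited. Other scalings were not applied to these classes. Gene lengths recovered from the FPKM steps divided the tested genes into 5 classes of nearly equal number. In the shortest class, of 169 to 1216 bases, 32% of 5458 genes were higher in young leaves at 100 µM and 20.1% lower, with a median difference of 0.11. In the longest class, of 2799 to 16968 bases, 21.5% of 5454 genes were higher and 23.7% lower, with a median of -0.05. The share of higher genes fell or stayed level with each step in length, at 32, 28.9, 28.9, 26.7 and 21.5%. Differences of 2-fold or more were also rarer among long genes in both directions, with 13.4% higher and 6.98% lower in the shortest class against 7.61 and 3.96% in the longest. At 5 µM the median difference was -0.21 in the shortest class and -0.15 in the longest, so that the order of the classes was not the same at both Mn levels.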

How the data were processed

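The authors deposited FPKM values for 39811 genes in 12 libraries. The tools listed, without their roles, are HISAT2 2.1.0, Bowtie2 2.2.3 and DESeq2 1.6.3, per the submitters' processing notes. How fragments were counted, with or without strand, and where fragments of several genes went is not given in the sources used here. FPKM keeps a library's composition: a few very abundant genes lower the values of all others.

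Depth was recovered from the FPKM steps, since ratios between libraries are ratios of whole numbers. All 39811 genes gave fragment numbers within 0.02 of whole numbers in 12 libraries. A single fragment of a 1 kb gene then equals an FPKM of 0.048 to 0.0539 at 100 µM.

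Differences were tested with limma 3.58.1 (R 4.3.3), with moderated variances following the trend of expression, 2-sided, on log2(FPKM + 1). The 6 libraries at 100 µM were fitted alone, those at 5 µM likewise for the same genes, and the change of the difference with all 12. The fits and the recovery were tested on simulated data. Permutation tests used SciPy 1.17.1.

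No gene ID matched a name in the RefSeq table (Glycine_max_v4.0), so the gene lists and marker lists could not be applied. Named are, among called genes that had no overlap and reached a mean FPKM of 5 in the higher leaf age, the 2 strongest in each direction by ID; genes described by chromosome only, and the 2 in each direction for the change with Mn, were chosen after their values were seen. The comparison and lists were chosen with earlier results of these data known. No replicates were pooled or left out: chi-square per gene between replicates at 100 µM was 10 or more in each pair. Alternatives were other pseudocounts (0.1 and 5), other filters, rescaling, the replicate number as a term, voom on recovered fragments, all 12 libraries, and each library left out.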

Additional observations from a re-analysis of the deposited data

Results flagged for a closer look

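The leaf age difference (young minus old) was compared between 100 and 5 µM Mn by a test of the change itself, in limma over all 12 libraries. The change passed for 1293 of 27271 genes. Among the genes given by ID, the differences at 100 and 5 µM were 9.71 and 8.15 for Glyma.14G115500.Wm82.a2.v1, a change of 1.55 (adjusted p = 0.011). For Glyma.02G083700.Wm82.a2.v1 they were 1.5 and -5.53, a change of 7.03 (adjusted p = 0.0063). For Glyma.12G021300.Wm82.a2.v1 they were 2.99 and -2.04, a change of 5.03 (adjusted p = 0.021). For Glyma.15G272800.Wm82.a2.v1 they were -2.31 and 0.84, a change of -3.15 (adjusted p = 0.0056). For Glyma.03G036500.Wm82.a2.v1 they were -5.22 and -2.44, a change of -2.78 (adjusted p = 0.0056). All 5 genes kept the sign of the change in every alternative run, and 4 of them kept the call in every one. Glyma.14G115500.Wm82.a2.v1 was picked by its difference at 100 µM, which is part of the change, and the others by the change itself. The alternatives used the same libraries, so keeping sign or call is no independent support.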

How the results depend on the processing

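Called were 13529 genes (7529 higher in young leaves and 6000 lower), of which 2941 were higher and 1487 lower by 2-fold or more. With a pseudocount of 5 the counts at 2-fold or more were 1171 higher and 704 lower, as a larger pseudocount shrinks the differences of low genes. They were 3847 and 1981 with a pseudocount of 0.1, and 3908 and 2038 with voom on recovered fragments. Under the filter of a mean FPKM of 5 or more, which left 16203 genes, 8283 were called, 4121 of them higher and 4162 lower, and 1388 higher by 2-fold or more. With 1 library left out, 11025 to 12573 genes were called. The change of the age difference with Mn was called for 1293 genes, for 819 with voom on recovered fragments and for 171 to 3193 with 1 library left out, and the cause was not tested. With the replicate block, 732 genes were called for the change and 12618 for the leaf age difference, of which 12160 were shared with the fit without it. Same-numbered young and old libraries at 100 µM correlated in their deviations at -0.098, 0.234 and 0.029, so the numbers were not taken to pair them. The change of Glyma.11G098400.Wm82.a2.v1, -0.18 as reported and not called, was 0.28 after quantile normalization and still not called; the cause was not tested. Of the values of genes given by ID under the alternatives, 272 kept direction and side of the threshold, 5 no longer passed, 2 newly passed and 1 changed sign. Those that newly passed were the change of Glyma.15G041100.Wm82.a2.v1 with a pseudocount of 5 (adjusted p = 0.043) and without replicate 1 of old leaves at 5 µM (adjusted p = 0.018). With 3 libraries per group, a gene with few fragments has a wide counting error.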
